A study of Homo sapiens with 21 samples.

Results

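The genes described here are imprinted genes, which are transcribed mainly from the copy inherited from one parent. They were taken as a list of 38 symbols, with imprinting reported in human or mouse, set by symbol and not by a threshold on these levels, out of 53515 genes in the count files. Of the 38 members, 35 were matched to a gene with counts, and the levels of KCNQ1OT1, ZIM2 and HYMAI were not analysed here. RNA was sequenced from cancer cell lines and from lines grown out of them in rising concentrations of a drug, so that each resistant line can be set against its parental line. There were 21 libraries from 17 lines, namely 7 parental and 10 resistant ones. HepG2 is a liver cancer line, and HepG2S1 and HepG2S3 are labelled as derived from it with sorafenib, a kinase inhibitor. PancVB is a pancreatic cancer line, and PancB1Q and PancB1V were derived with 5-fluorouracil, which blocks thymidylate synthesis. HCC4006P1 and HCC4006P2 are stocks of the lung adenocarcinoma line HCC4006, from which HCC4006ER was derived with erlotinib and HCC4006GR with gefitinib, both inhibitors of the EGF receptor. HCC827P is a further lung adenocarcinoma line, with HCC827GR derived by gefitinib. UWB1.289 is an ovarian cancer line without functional BRCA1, with U10 and U100 derived by the PARP inhibitor olaparib, and IGROV-1 is an ovarian cancer line with IGROV-1/CDDP derived by cisplatin. A pair of libraries was made for 4 lines (HepG2, HepG2S3, HCC4006ER and HCC4006P1), while 13 lines had 1.

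Imprinted genes lie in clusters, and in many of them a differentially methylated region, set in the egg or the sperm, decides which parental copy is active. After fertilisation this methylation is kept through cell division by zinc finger proteins that recruit TRIM28, SETDB1 and DNMT1. Many of the members act on fetal and placental growth, several are silent in most adult tissues, and loss of imprinting, by which both copies become active or both silent, is known in many tumours. The counts add both copies of each gene, so imprinting itself was not measured, and each value below is the total level.

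Levels are given as CPM, a gene's counts scaled to 1000000 counts on genes in its library. The libraries held 9851195 to 36639473 counts on genes, with a median of 19498932, so a level of 0 in a single library allowed up to 0.0819 to 0.305 CPM at 3 counts. A member was called off in a line when it was under 0.5 CPM in every library and on when it was at or above 5 CPM in every library, and a switch was off in one line of a pair and on in the other. A 4-fold change was a difference of 2 or more between the lines of a pair in log2(mean CPM + 1), with a mean of 1 CPM or more in either line. Folds were computed from counts pooled over a line's libraries, and a fold against 0 counts is a lower bound set by 3 counts over the line. Counting intervals and these bounds cover counting error only, since amplified reads are not independent molecules. One library of the parental line HCC4006P1, replicate 1, held no counts past a point on chromosome 7 in the order of the file, which took in 7 members, PEG10, SGCE, PPP1R9A, MEST, GRB10, DDC and ZFAT. These 7 members were read from replicate 2 of that line alone, and the levels of the other members in replicate 1 were raised by an estimated 22.1% through its smaller total, taken from the share of replicate 2's counts on genes past the point.

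The cell type labels were checked against marker genes before the members were read, and the HepG2 pairs went against theirs. The 4 liver markers (ALB, APOA1, AFP and TTR) summed to 16437 CPM in HepG2, where ALB was the most abundant at 12183 CPM. In HepG2S1 the same 4 markers had 0 counts, and in HepG2S3 they summed to 17.2 CPM, of which ALB gave 9.17 CPM, on by the rule above, and AFP 7.47 CPM. Of the 3 fibroblast markers, DCN was at 0.0136 CPM in HepG2, 399 CPM in HepG2S1 and 345 CPM in HepG2S3 and LUM at 0.0280, 135 and 36.5 CPM, while COL1A1, at 16.7, 26.3 and 17.1 CPM, did not meet the 4-fold rule. Markers of other lineages went in both directions, with MUC1 at 0.0136, 122 and 22.9 CPM and MUC16 at 0.0280, 21.3 and 7.62 CPM, both switched on, and EGFR at 24.7, 372 and 445 CPM, while KRT19 was at 347, 102 and 164 CPM, PAX8 at 4.58, 1.12 and 0.960 CPM and WT1 at 0.351, 0 and 0 CPM. The leukocyte marker CD68 was at 42.6, 113 and 143 CPM in the same order, under the 4-fold rule. HepG2S1 thus had none of the 4 liver markers and HepG2S3 had them far below HepG2. The paper describes copy number differences between parental and resistant lines as small, except in the HepG2 pairs. It classes HepG2S1, HepG2S3, PancB1Q, PancB1V, HCC4006ER, HCC4006GR and HCC827GR as having undergone full EMT, from an epithelial to a mesenchymal state. U10, U100 and IGROV-1/CDDP are classed there as partial EMT, and KRT19 is among its epithelial marker genes. It also reports HepG2S1 and HepG2S3 as less sensitive to sorafenib than HepG2. Whether these libraries come from descendants of HepG2 was not tested here. A difference in these pairs therefore cannot be taken as one that arose within a line, and the counts of members are given with and without these pairs. HCC4006ER also had a higher fibroblast sum than HCC4006P1, 168 against 18.0 CPM with LUM the most abundant at 115 CPM, while the keratin KRT19 stood at 2.11 against 1723 CPM, MUC1 at 23.6 against 319 CPM, CEACAM6 at 0.0257 against 99.7 CPM and EGFR at 198 against 1036 CPM, and the part of this in its results was not tested. Of the leukocyte markers, PTPRC was at 0.0780 CPM in HCC4006P1 and 0.586 CPM in HCC4006ER, and CD68 at 116 and 101 CPM. The lung markers NKX2-1, NAPSA and SFTPB were at 0.0802, 0.106 and 0.237 CPM in HCC4006P1. In HCC4006P2 they were at 113, 143 and 10.1 CPM, and CEACAM6 was at 7405 CPM there. Of the 4 lung markers, EGFR alone was on in HCC4006P1, while all 4 were on in HCC4006P2. The stocks of HCC4006 thus differed in defining markers, and HCC4006P1 met its lung label by EGFR only. NKX2-1, NAPSA, SFTPB and CEACAM6 were 4-fold lower in HCC4006GR than in HCC4006P2, at 18.6 against 113 CPM for NKX2-1, 1.52 against 143 CPM for NAPSA, 1.13 against 10.1 CPM for SFTPB and 614 against 7405 CPM for CEACAM6, and MUC1 and CEACAM6 were 4-fold lower in HCC827GR, at 7.85 against 34.9 CPM and 6.11 against 37.0 CPM, while AFP was 4-fold higher there, at 4.37 against 0 CPM. PDX1, which marks the pancreas lineage, was at 0.184 CPM in PancVB, and of the duct markers MUC1 was at 3.73 CPM and CEACAM6 at 0 CPM there. The duct keratin KRT19 was at 677 CPM in PancVB, 82.0 CPM in PancB1Q and 28.6 CPM in PancB1V, 4-fold lower in both, as was MUC16 in PancB1V at 0.0403 against 7.37 CPM, and KRT19 was 4-fold higher in IGROV-1/CDDP than in its parental line, at 373 against 89.2 CPM. The endothelial marker CDH5 was at 9.03 CPM in UWB1.289, 81.4 CPM in U10 and 43.9 CPM in U100, 4-fold higher in both. CDH5 was also on in PancVB, PancB1Q and PancB1V, at 43.0, 45.9 and 68.5 CPM, and in IGROV-1 at 5.89 CPM. PAX8, a marker of ovarian carcinoma, lay between 357 and 664 CPM in the 5 ovarian lines, and WT1 reached 0.487 CPM at most in them. In bulk RNA, fewer cells of a type and less RNA per cell cannot be told apart.

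**Figure D1:**
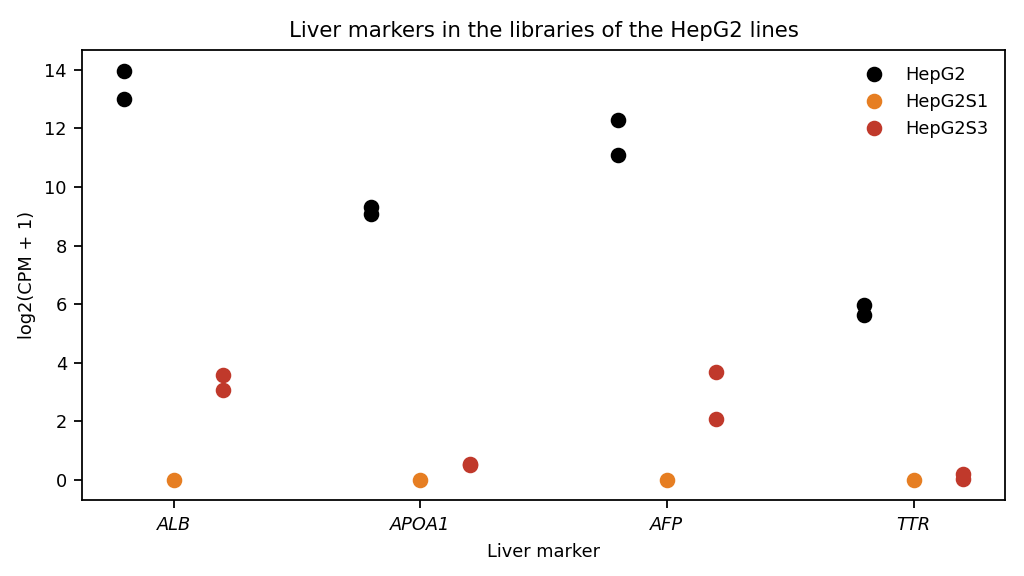
Level of each of the 4 liver markers as log2(CPM + 1), with 1 point per library of HepG2 (black), HepG2S1 (orange) and HepG2S3 (red). HepG2S1 lies at 0 for all 4 markers, and both HepG2 libraries lie above both HepG2S3 libraries for each.

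The 250 bases before the annotated start were read from the RefSeq promoter table (GRCh38.p14) for 25 of the 38 members, HYMAI among them. For each member the first listed start was taken. Whether it is the main start of the RNA counted here was not checked, for H19 as for the others. The 4 shown here belong to members that carry results below, and CpG dinucleotides, the bases that imprinting marks methylate, are in capitals. H19 lies on the minus strand (chr11:2001267-2001516), MEG3 on the plus strand (chr14:100825858-100826107), DDC on the minus strand (chr7:50565406-50565655) and FAM50B on the plus strand (chr6:3849123-3849372). They hold 4, 13, 2 and 18 CpGs in that order. Over the 25 members the median was 15 CpGs, against 11 over all 35116 promoters in the table, and the ratio of observed to expected CpGs was over 0.6 in 15 of 25 members (60%) against 47.5% of all promoters. The motif TGCCGC was searched on both strands because it is the core bound by the imprint factor ZFP57. It was found in 6 of 25 members (24%) and in 12.7% of all promoters, and a match describes the letters only. In these comparisons all promoters in the table were counted, without the cut to the first listed start made for members. IGF2, CDKN1C, DLK1 and PEG3, which switched in a pair, are not among the 25.
H19: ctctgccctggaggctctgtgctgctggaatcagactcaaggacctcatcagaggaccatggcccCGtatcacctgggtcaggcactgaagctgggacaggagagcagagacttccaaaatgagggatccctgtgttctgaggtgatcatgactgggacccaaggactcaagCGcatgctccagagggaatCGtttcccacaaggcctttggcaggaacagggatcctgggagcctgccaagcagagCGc
MEG3: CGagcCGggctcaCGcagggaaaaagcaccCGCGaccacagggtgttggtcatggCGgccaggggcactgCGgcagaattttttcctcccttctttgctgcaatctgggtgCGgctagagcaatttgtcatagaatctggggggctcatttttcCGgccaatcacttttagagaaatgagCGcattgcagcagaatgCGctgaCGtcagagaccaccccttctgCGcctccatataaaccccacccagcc
DDC: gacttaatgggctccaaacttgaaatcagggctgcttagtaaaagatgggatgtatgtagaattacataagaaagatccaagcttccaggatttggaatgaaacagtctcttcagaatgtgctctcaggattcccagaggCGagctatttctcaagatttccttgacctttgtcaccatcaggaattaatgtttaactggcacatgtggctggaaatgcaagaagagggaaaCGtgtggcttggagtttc
FAM50B: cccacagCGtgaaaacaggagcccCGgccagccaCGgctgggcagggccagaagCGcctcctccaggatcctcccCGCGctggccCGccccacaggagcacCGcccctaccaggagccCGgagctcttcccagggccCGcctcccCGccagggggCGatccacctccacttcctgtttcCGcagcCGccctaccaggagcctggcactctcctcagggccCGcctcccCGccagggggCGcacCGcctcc

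Across the 17 lines, 11 of the 35 matched members were on in every line, as were 7843 of the 53515 genes. These were PEG10, SGCE, MEST, GRB10, UBE3A, BLCAP, GNAS, IGF2R, ZDBF2, INPP5F and ZFAT, and for most of them imprinting in human is known to depend on tissue, isoform or promoter. GNAS, which encodes the stimulatory G protein alpha subunit, ranged from 304 CPM in HCC827P to 3259 CPM in HCC4006ER, and INPP5F, a phosphoinositide phosphatase, from 9.97 to 52.0 CPM. A further 16 members were on in some lines and off in others, as were 3870 of the 53515 genes. On in 1 or more lines were 32 members and 14684 genes, and the difference was not tested. Which members were silent thus differed from line to line. MAGEL2, NNAT and DIRAS3 were on in no line, with highest levels of 1.30, 2.98 and 2.42 CPM. Of the 53515 genes, 38831 were on in no line. None of the 35 was off in all 17 lines, while 31692 of all genes were. Among the 7 parental lines alone, 28 members were on in 1 or more, and 12 of these 28 were off in 1 or more others, beside 19.6% of the 13835 genes on in 1 or more parental lines. No test was made of that difference, and it says nothing of the drugs.

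**Figure D2:**
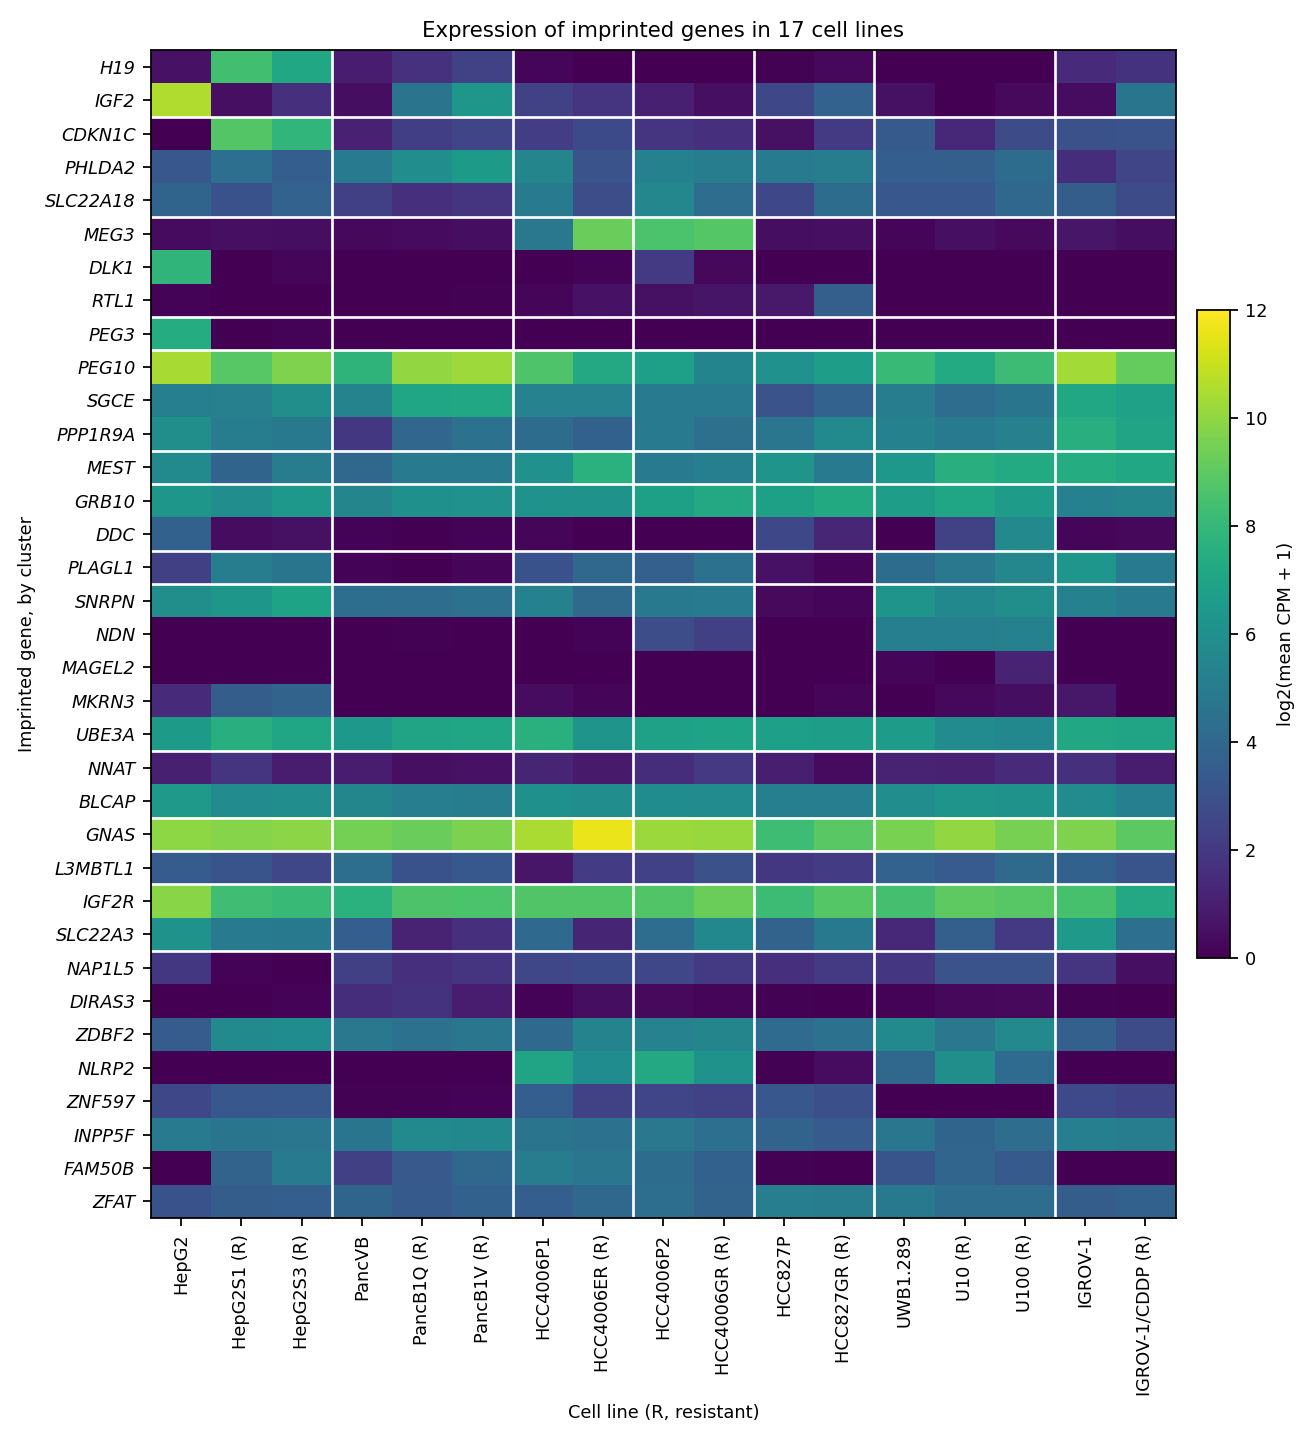
Level of the 35 matched members in the 17 lines, as log2(mean CPM + 1) on the colour scale, ordered by cluster. PEG3 and DLK1 are on in HepG2 alone, while GNAS and IGF2R are high in each line.

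Counted over the 10 pairs, members could switch 219 times and did so 15 times, 8 times to on and 7 times to off, and these 15 came from 6 members. Of the 15, 11 were in the HepG2 pairs, whose descent from HepG2 was not tested, and without these pairs there were 4 switches. In HepG2S1, 6 of 27 members that were on in either line switched (22.2%), beside 8.26% of all such genes, and in HepG2S3 5 of 27 did (18.5%), beside 7.66%. PancB1Q and PancB1V had 1 switch each among 18 members, beside 0.873% and 1.15% of genes. U100 had 1 among 23, beside 0.110%, and IGROV-1/CDDP 1 among 20, beside 0.935%. The remaining pairs had none: 0 of 22 in HCC4006ER beside 2.05%, 0 of 22 in HCC4006GR beside 0.729%, 0 of 19 in HCC827GR beside 0.939% and 0 of 23 in U10 beside 0.265%. With 1 member or none per pair outside HepG2, these counts do not set the members apart from other genes. HepG2S1 and HepG2S3 share the HepG2 libraries, PancB1Q and PancB1V share PancVB, and U10 and U100 share UWB1.289, so values of such pairs are given side by side and are not independent of each other.

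A 4-fold change was met 38 times among 255 member and pair combinations at 1 CPM or more, 24 higher and 14 lower in the resistant line, and 18 times (12 higher, 6 lower) without the HepG2 pairs. Of the 35 members, 17 changed 4-fold in at least 1 pair and 18 in none. The share of all genes that changed in at least 1 pair was not counted, so these counts do not set the members apart. HepG2S1 and HepG2S3 each had 6 members higher and 4 lower of 29, beside 9.67% and 8.70% of genes in HepG2S1 and 10.7% and 8.56% in HepG2S3, but with TMM-scaled totals HepG2S1 had 4 higher and 6 lower and HepG2S3 6 of each. PancB1Q had 3 higher and 1 lower of 23, beside 1.65% and 1.65% of genes, and PancB1V had 3 higher and 0 lower of 23, beside 2.51% and 1.53%. Among the lung lines, HCC4006ER had 1 higher and 3 lower of 26, beside 3.83% and 3.79%, HCC4006GR had 0 of 28 either way (with a pseudocount of 0.1 CPM DLK1 was lower), beside 2.34% and 1.31%, and HCC827GR had 1 higher and 0 lower of 22, beside 2.77% and 1.49%. Among the ovarian lines, U10 had 2 higher and 1 lower of 25, beside 1.14% and 0.521%, U100 had 1 higher and 0 lower of 26, beside 0.861% and 0.125%, and IGROV-1/CDDP had 1 of each of 24, beside 1.26% higher and 1.79% lower. The median log2 change of the members was 0.61 in PancB1Q and 0.66 in PancB1V, where that of all genes was -0.12 and -0.01. It was 0.45 in HCC827GR and -0.44 in IGROV-1/CDDP, where that of all genes was 0.05 and -0.06. In HCC4006ER, HCC4006GR, U10 and U100 the members' medians were -0.12, -0.12, 0.01 and 0.20. Those of all genes were 0.001, -0.08, -0.02 and 0.07 in that order. The members' medians thus went in both directions. In HepG2S1 and HepG2S3 the members' medians were -0.32 and -0.09 and those of all genes 0.25 and 0.28, and a rise of many genes and a shift of the scale cannot be told apart by these medians. IGF2, CDKN1C, DDC and SLC22A3 changed 4-fold in opposite directions in different pairs.

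**Figure D3:**
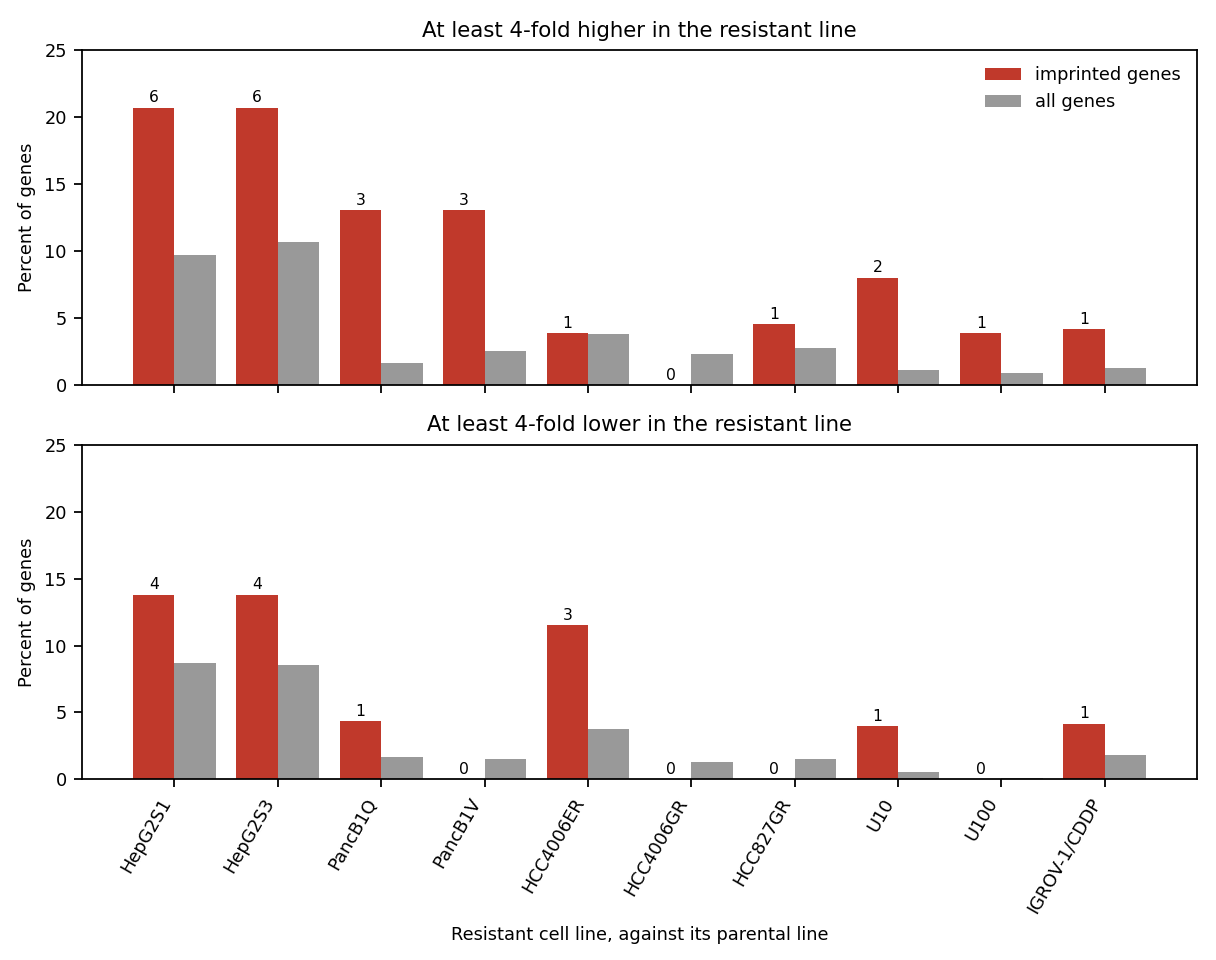
Share of members and of all genes that were at least 4-fold higher or lower in the resistant line of each pair, in percent. Members stand at 20.7% higher in HepG2S1 and HepG2S3, against 9.67% and 10.7% of genes.

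The cluster at 11p15.5 holds H19, a noncoding RNA made from the maternal copy, and IGF2, a fetal growth factor made from the paternal copy, which share enhancers across a region bound by CTCF (ENSG00000130600, chr11:2016396-2025782 and ENSG00000167244, chr11:2150342-2179621, both minus strand, GRCh37). H19 was at 0.791 and 0.172 CPM in the HepG2 replicates, 325 CPM in HepG2S1 and 149.8 and 140.3 CPM in the HepG2S3 replicates. Its level was thus low in both HepG2 libraries and high in the 3 libraries of the resistant lines, with no overlap, and it was not counted as a switch because the first HepG2 replicate lay above 0.5 CPM. H19 was 663-fold higher in HepG2S1 (95% counting interval 476 to 954) and 296-fold higher in HepG2S3 (95% counting interval 213 to 426). Without the first HepG2 replicate these folds were 1887 and 843 and both were switches, and without the second they were 410.4 and 183. IGF2 went the other way, at 1179.5 and 1875 CPM in HepG2, 0.406 CPM in HepG2S1 and 2.34 and 2.09 CPM in HepG2S3. The HepG2 libraries were the highest of all 21 for IGF2, and every library of HepG2S1 and HepG2S3 lay at or under 2.34 CPM. That made IGF2 3739.7-fold lower in HepG2S1 (95% counting interval 1461 to 13726) and 684-fold lower in HepG2S3 (95% counting interval 579.6 to 814), counted as switched off in HepG2S1 only, since HepG2S3 stayed above 0.5 CPM, and not with totals over the genes before the point. H19 and IGF2 therefore moved in opposite directions in these pairs, which are the pairs whose liver markers were at 0 or far below HepG2.

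In 3 pairs outside liver IGF2 was instead switched on. PancVB had 0.368 CPM, PancB1Q 23.6 CPM and PancB1V 80.7 CPM, and in ovary the level was 0.327 CPM in the parental IGROV-1 line against 24.5 CPM in IGROV-1/CDDP. Each of these lines had 1 library, so the differences have no replicate check, and KRT19 differed 4-fold in the same 3 pairs and MUC16 in that of PancB1V. IGF2 was 64.0-fold higher in PancB1Q (95% counting interval 32.3 to 149), 219-fold higher in PancB1V (95% counting interval 111 to 508) and 74.8-fold higher in IGROV-1/CDDP (95% counting interval 39.1 to 164). H19 was at 0.921 CPM in PancVB, 2.28 CPM in PancB1Q, 4.15 CPM in PancB1V, 1.71 CPM in parental IGROV-1 and 2.37 CPM in its cisplatin line, below the 4-fold rule in each pair and under 5 CPM in each line, although H19 was 4.50-fold higher in PancB1V (95% counting interval 2.77 to 7.68) and met the rule there with a pseudocount of 0.1 CPM. In the lung lines IGF2 was between 0.397 CPM in HCC4006GR and 12.6 CPM in HCC827GR. IGF2 exons overlap those of the INS-IGF2 readthrough gene and another gene on the same strand, over 25.7% of their length for both. The share of INS-IGF2 alone was not separated, and reads in the overlap cannot be assigned to one gene.

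The neighbouring KCNQ1 domain of 11p15.5 holds CDKN1C, a maternally expressed inhibitor of cyclin-dependent kinases that restrains growth (ENSG00000129757, chr11:2904443-2907005, minus strand, GRCh37), with PHLDA2, a placental growth restrainer, and SLC22A18, a membrane transporter. CDKN1C was at 0.0273 and 0.0287 CPM in HepG2, 445 CPM in HepG2S1 and 237 and 240.1 CPM in HepG2S3. From 2 counts in both HepG2 libraries together it reached the highest levels of any line, and it was 15896-fold higher in HepG2S1 (95% counting interval 4398 to 131298) and 8527-fold higher in HepG2S3 (95% counting interval 2360.2 to 70420.1). UWB1.289 had 9.55 CPM of CDKN1C, U10 1.56 CPM and U100 5.80 CPM, which made it 6.12-fold lower in U10 (95% counting interval 3.61 to 11.1). CDKN1C was thus low in U10 and the other UWB1.289 lines held several times as much, each with 1 library. PHLDA2 was at 36.2 and 50.1 CPM in HCC4006P1 and 5.82 and 8.83 CPM in HCC4006ER, 5.92-fold lower in HCC4006ER (95% counting interval 5.22 to 6.73). SLC22A18 followed the same order, at 32.6 and 25.7 CPM in HCC4006P1 and 6.58 and 5.50 CPM in HCC4006ER, 4.82-fold lower in HCC4006ER (95% counting interval 4.18 to 5.57). For both genes the 2 libraries of HCC4006ER lay below both of HCC4006P1, but SLC22A18 no longer met the 4-fold rule with totals over the genes before the point, without HCC4006P1 replicate 1 or without HCC4006ER replicate 2.

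**Figure D4:**
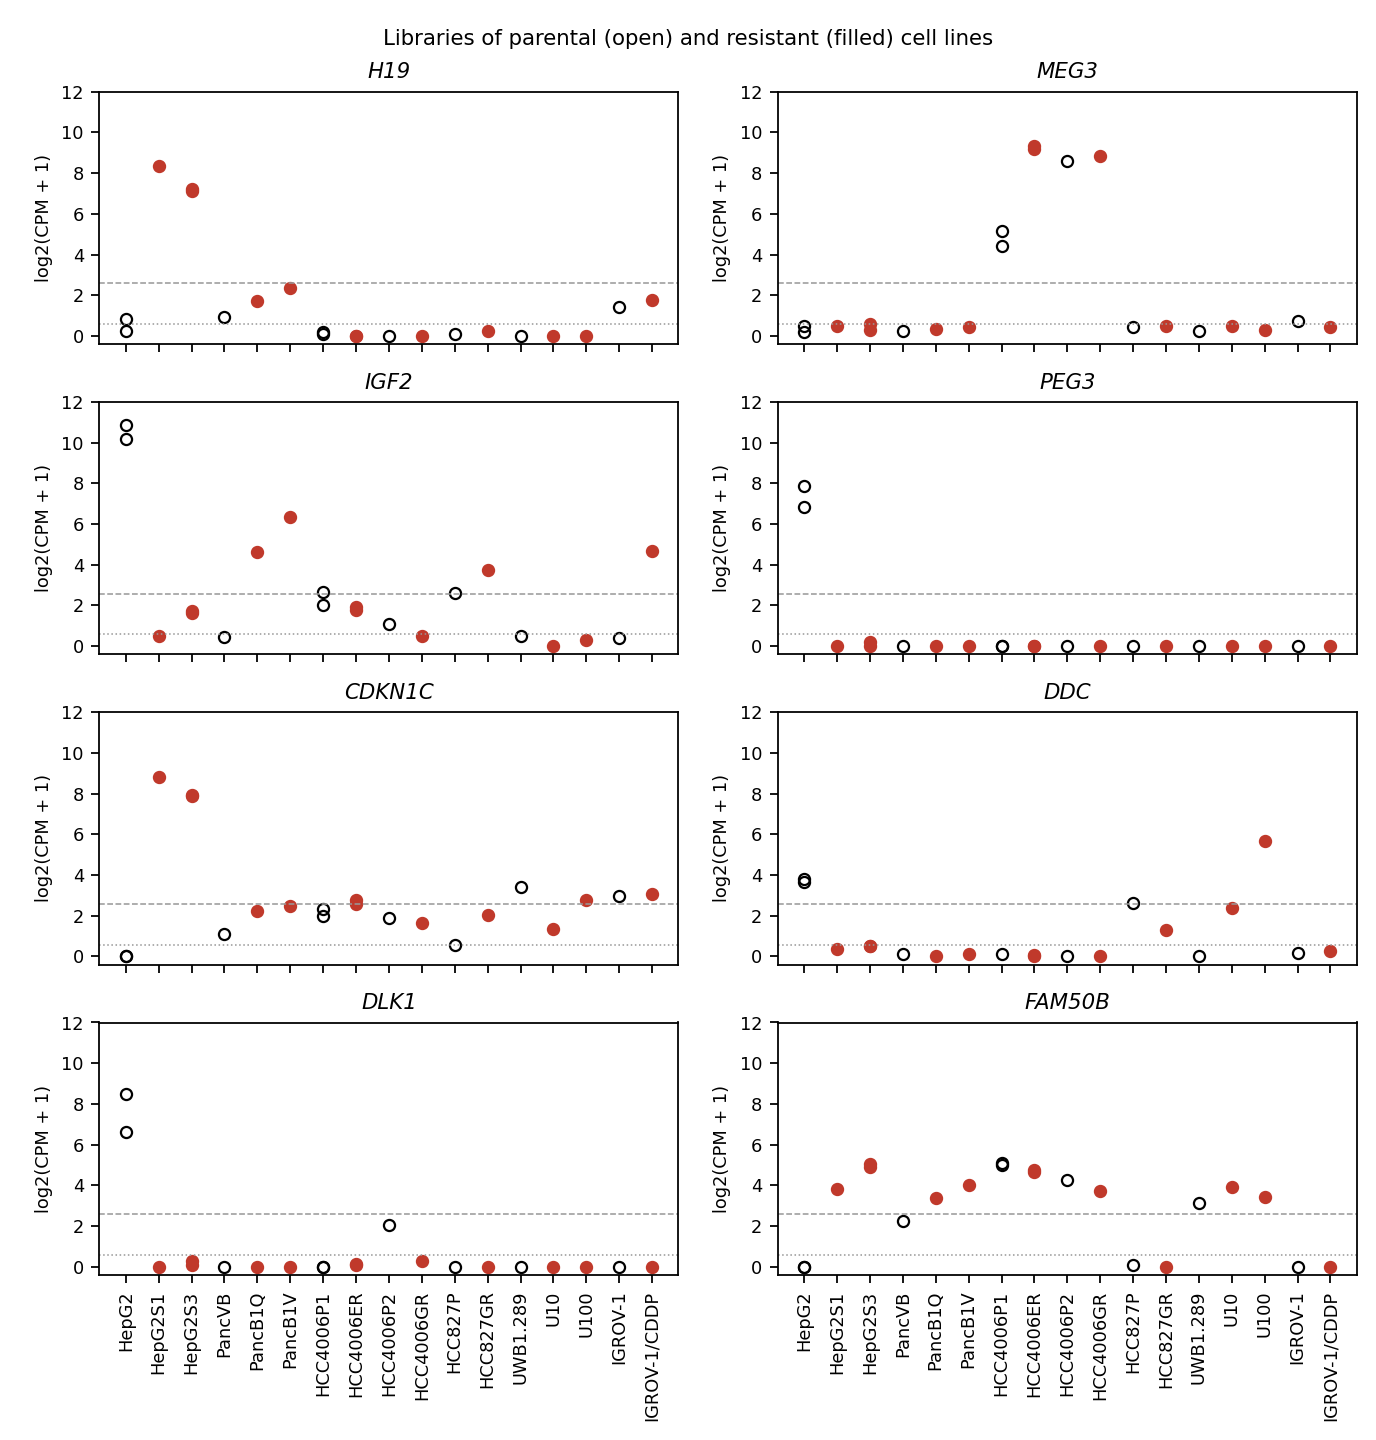
Level of the 6 members that switched in any pair, and of H19 and MEG3, as log2(CPM + 1), with 1 point per library, open for parental and red for resistant lines, a dashed line at 5 CPM and a dotted line at 0.5 CPM. IGF2, DLK1 and PEG3 are high in the HepG2 libraries, and CDKN1C reaches 445 CPM in HepG2S1.

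At 14q32, DLK1, a membrane ligand of fetal tissues, and RTL1, a placental gene of retrotransposon origin, are made from the paternal copy, and the noncoding RNA MEG3 from the maternal one. DLK1 (ENSG00000185559, chr14:101192042-101204561, plus strand, GRCh37) was at 362 and 98.8 CPM in HepG2, 0 CPM in HepG2S1 and 0.0625 and 0.228 CPM in HepG2S3. HepG2 was the single line with DLK1 on, although its replicates differed several-fold, and DLK1 was at least 767-fold lower in HepG2S1 and 1626-fold lower in HepG2S3 (95% counting interval 856 to 3556). With a library left out the bound in HepG2S1 was 324 to 1188 and the fold in HepG2S3 688 to 3738. MEG3, whose promoter is printed above, was at 0.409 and 0.143 CPM in HepG2, 0.406 CPM in HepG2S1 and 0.219 and 0.522 CPM in HepG2S3. It was thus low in each of these lines, while DLK1 was on in HepG2 only. In lung the pattern was different, with MEG3 at 34.4 and 20.2 CPM in HCC4006P1 and 637 and 591 CPM in HCC4006ER. Both HCC4006ER libraries were above both parental ones, and MEG3 was 22.6-fold higher in HCC4006ER (95% counting interval 21.3 to 24.1). The other stock, HCC4006P2, already held 384 CPM of MEG3, near the 462 CPM of HCC4006GR. Between the stocks, 3 of 28 members (MEG3, DLK1 and NDN) differed at least 4-fold, beside 5.09% of all genes, a comparison chosen after the values were seen. DLK1 was at 0 CPM in HCC4006P1 and 3.09 CPM in HCC4006P2, and NDN at 0.0267 and 6.17 CPM. A MEG3 level like that of HCC4006ER was thus also found in the parental stock HCC4006P2, whose lung markers differed from those of HCC4006P1. RTL1 was at 0.750 CPM in HCC827P and 11.4 CPM in HCC827GR, 15.3-fold higher in HCC827GR (95% counting interval 8.70 to 29.2), in the pair where MUC1 and CEACAM6 were lower and AFP higher, while MEG3 was at 0.346 and 0.386 CPM in these lines. RTL1 was on in HCC827GR alone among the 17 lines, and 9.99% of its exon length is overlapped by antisense genes, whose reads cannot be told apart because the strand setting of the counting is not given in the sources used here.

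PEG3, a paternally expressed zinc finger gene at 19q13.4 (ENSG00000198300, chr19:57321445-57352096, minus strand, GRCh37), was at 231 and 116 CPM in HepG2, 0 CPM in HepG2S1 and 0 and 0.163 CPM in HepG2S3. No other line had it on, and the HepG2 libraries stood far above those of the resistant lines. PEG3 was at least 574-fold lower in HepG2S1 and 2189-fold lower in HepG2S3 (95% counting interval 938 to 6743), where the 5 counts in HepG2S3 all came from its second replicate, and without HepG2 replicate 1 these were 379 and 1447, and 1071 in HepG2S3 without its first replicate.

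Chromosome 7 holds 3 groups of members. At 7q21, PEG10, a retrotransposon-derived gene needed for the placenta, and SGCE, a sarcoglycan, share a promoter region and are paternally expressed, and PPP1R9A, which encodes the actin-binding neurabin, lies beside them. PEG10 was at 224 CPM in PancVB, 1046 CPM in PancB1Q and 1193 CPM in PancB1V, 4.67-fold higher in PancB1Q (95% counting interval 4.53 to 4.81) and 5.32-fold higher in PancB1V (95% counting interval 5.16 to 5.49). PPP1R9A was at 2.81, 14.8 and 21.5 CPM in the same order, 5.26-fold higher in PancB1Q (95% counting interval 4.02 to 7.00) and 7.67-fold higher in PancB1V (95% counting interval 5.88 to 10.2). SGCE was at 40.8, 134 and 139 CPM, under the 4-fold rule, so the 3 neighbours at 7q21 were all higher in both 5-fluorouracil lines, which share their parental library. MEST, a paternally expressed hydrolase-like gene of 7q32, was on in all lines, from 13.399 CPM in HepG2S1 to 202 CPM in HCC4006ER. At 7p12, GRB10, an adaptor that dampens insulin receptor signalling, ranged from 37.6 CPM in IGROV-1 to 156 CPM in HCC827GR. DDC, its neighbour, encodes the decarboxylase that makes dopamine and serotonin (ENSG00000132437, chr7:50526134-50633102, minus strand, GRCh37), and its printed promoter has 2 CpGs. DDC was at 11.4 and 12.9 CPM in HepG2, 0.305 CPM in HepG2S1 and 0.437 and 0.424 CPM in HepG2S3, off in the resistant lines and on in both HepG2 libraries. It was 39.9-fold lower in HepG2S1 (95% counting interval 13.6 to 194) and 28.2-fold lower in HepG2S3 (95% counting interval 19.2 to 43.0), and its switch in HepG2S3 was lost with TMM-scaled totals and with totals over the genes before the point. In the ovarian lines DDC was at 0 CPM in UWB1.289, 4.19 CPM in U10 and 49.4 CPM in U100. Both olaparib lines were above the parental line, which had no count, at least 16.2-fold higher in U10 and at least 191-fold higher in U100, and U10 did not reach the 5 CPM that a switch needs, except with totals over the genes before the point.

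At 6q24, PLAGL1 encodes a paternally expressed zinc finger factor that restrains cell division. PLAGL1 was at 3.41 and 4.13 CPM in HepG2, 32.5 CPM in HepG2S1 and 23.1 and 25.9 CPM in HepG2S3, 8.63-fold higher in HepG2S1 (95% counting interval 7.32 to 10.2) and 6.51-fold higher in HepG2S3 (95% counting interval 5.71 to 7.44). It was off in HCC827GR and in the 3 pancreatic lines, where the highest level was 0.161 CPM, and highest in IGROV-1 at 78.0 CPM. At 6q25, IGF2R encodes the receptor that clears IGF2, and SLC22A3 an organic cation transporter. SLC22A3 was at 11.2 CPM in PancVB, 1.19 CPM in PancB1Q and 2.13 CPM in PancB1V, 9.40-fold lower in PancB1Q (95% counting interval 6.54 to 13.9) and 5.24-fold lower in PancB1V (95% counting interval 3.88 to 7.20). IGROV-1 had 85.4 CPM of SLC22A3 and IGROV-1/CDDP 19.98 CPM, 4.28-fold lower (95% counting interval 3.88 to 4.72). HCC4006P1 had 18.5 and 13.6 CPM and HCC4006ER 1.06 and 1.64 CPM, 11.9-fold lower (95% counting interval 8.95 to 16.0). UWB1.289 had 1.55 CPM, U10 11.5 CPM and U100 3.05 CPM, 7.43-fold higher in U10 (95% counting interval 4.50 to 12.97). By the 4-fold rule the transporter gene was lower in PancB1Q, HCC4006ER and IGROV-1/CDDP and higher in the olaparib line U10, while PancB1V, at -1.96 on the log2 scale, missed the rule through its pseudocount of 1 CPM and met it with 0.1 CPM, and IGROV-1/CDDP missed it with TMM-scaled totals.

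The 15q11-q13 cluster is that of the Prader-Willi and Angelman syndromes. Its member SNRPN encodes a splicing protein from the paternal copy and was on in 15 of 17 lines, and off in HCC827P and HCC827GR at 0.231 and 0.129 CPM. NDN, paternally expressed and linked to growth arrest in neurons, was on in 4 lines, UWB1.289 at 34.9 CPM, U10 at 34.7 CPM, U100 at 38.1 CPM and HCC4006P2 at 6.17 CPM. MKRN3, a paternally expressed ring finger gene known for its role in the timing of puberty, was at 1.77 and 1.64 CPM in HepG2, 10.8 CPM in HepG2S1 and 12.7 and 13.3 CPM in HepG2S3. It was on in these resistant lines alone, 6.31-fold higher in HepG2S1 (95% counting interval 4.81 to 8.25) and 7.63-fold higher in HepG2S3 (95% counting interval 6.30 to 9.31), and with TMM-scaled totals MKRN3 no longer met the 4-fold rule in HepG2S1. UBE3A, a ubiquitin ligase that is maternally expressed in neurons, was on in every line between 48.3 CPM in U100 and 198 CPM in HCC4006P1. SNRPN shares exon bases with SNHG14 and another gene on the same strand, over 20% of its exon length for both. The share of SNHG14 alone was not separated. UBE3A shares 9.57% of its exon length with SNHG14 on the other strand.

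Among the single members, FAM50B, a paternally expressed gene that arose by retrotransposition (ENSG00000145945, chr6:3849607-3851554, plus strand, GRCh37), had 0 counts in both HepG2 libraries. Its levels were 12.99 CPM in HepG2S1 and 29.1 and 31.6 CPM in HepG2S3, and it was at least 309.6-fold higher in HepG2S1 and at least 723-fold higher in HepG2S3, bounds that were 151 and 352 without HepG2 replicate 1 and 159 and 371 without replicate 2, by the smaller totals. FAM50B was also off in HCC827P, HCC827GR, IGROV-1 and IGROV-1/CDDP, and its printed promoter has the most CpGs of the 4. ZDBF2, a paternally expressed zinc finger gene, was at 9.23 and 11.048 CPM in HepG2, 52.5 CPM in HepG2S1 and 55.8 and 56.6 CPM in HepG2S3, 5.19-fold higher in HepG2S1 (95% counting interval 4.63 to 5.82) and 5.55-fold higher in HepG2S3 (95% counting interval 5.13 to 6.03), and the first of these did not meet the 4-fold rule with TMM-scaled totals. NAP1L5, a paternally expressed relative of the nucleosome assembly proteins, was at 2.40 and 3.36 CPM in HepG2, 0.102 CPM in HepG2S1 and 0 and 0 CPM in HepG2S3, too low in HepG2 for the 4-fold rule or a switch, although it met the 4-fold rule in both pairs with TMM-scaled totals or a pseudocount of 0.1 CPM. NLRP2, a maternally expressed NLR-family gene, split the lines by origin, with 10 off and the 7 lines of HCC4006 and UWB1.289 on at 15.3 CPM or more. ZNF597, a maternally expressed zinc finger gene, was off in the 3 pancreatic lines and the 3 lines of UWB1.289, and it reached 11.2 CPM in HCC4006P1.

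Replicates allowed a test across all genes in 2 pairs, and the p-values measure only the spread between these libraries, which may be technical, since the sources do not say that replicates were separate cultures. In HepG2S3 against HepG2, 30 members were tested by edgeR's quasi-likelihood test with Benjamini-Hochberg adjustment. Of these 30, 8 rose, beside 31.4% of the 16929 genes tested, and 11 fell, beside 32.1%, so the members' share was close to that of all genes. H19 rose (log2 change 7.89, SE 0.56, adjusted p = 2.4e-04 by edgeR's quasi-likelihood test with Benjamini-Hochberg adjustment), and so did CDKN1C, FAM50B, PLAGL1, MKRN3 and ZDBF2. The counting bounds above are the measure for FAM50B, as a fitted fold of a gene with 0 counts depends on the prior count. SGCE and SNRPN rose by less, by 0.48 and 0.74 on the log2 scale, from 37.6 and 32.3 to 58.7 and 62.4 CPM and from 49.3 and 70.8 to 125 and 124 CPM. IGF2, DLK1, PEG3, DDC and NAP1L5 fell, with the HepG2S3 levels given above. IGF2R fell (log2 change -2.07, SE 0.14, adjusted p = 2.0e-04 by the same edgeR test), from 902 and 988 CPM to 284 and 277 CPM. The receptor and its ligand were thus both lower in HepG2S3. The other members that fell were SLC22A3 (-1.57), PPP1R9A (-1.44), L3MBTL1 (-1.37), MEST (-1.02) and BLCAP (-0.94), with log2 changes in brackets. The levels went from 61.1 and 73.7 to 27.6 and 28.7 CPM for SLC22A3 and from 62.0 and 58.2 to 26.6 and 28.6 CPM for PPP1R9A. They went from 10.999 and 9.30 to 5.47 and 4.28 CPM for L3MBTL1, a chromatin reader, from 46.7 and 57.7 to 30.6 and 33.5 CPM for MEST, and from 69.4 and 107 to 58.0 and 56.3 CPM for BLCAP, a small membrane protein gene. For these 5 members, the HepG2 and HepG2S3 libraries did not overlap. The calls for SGCE, SNRPN and BLCAP were lost when either HepG2S3 replicate was left out, that for MEST without replicate 1 and that for L3MBTL1 without replicate 2. Without TMM scaling the median change of all genes was 0.30 on the log2 scale, against -0.01 with it, and 9 members rose and 10 fell.

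In HCC4006ER against HCC4006P1 the fit was made on genes before the point on chromosome 7, and 20 of the 28 members there were tested by the same edgeR test. Of these 20, 6 rose, beside 24.1% of the 12791 genes tested, and 7 fell, beside 24.9%. MEG3 had the largest change (log2 change 4.57, SE 0.18, adjusted p = 1.2e-05 by edgeR's quasi-likelihood test with Benjamini-Hochberg adjustment). L3MBTL1 rose from 0.641 and 0.615 CPM to 3.49 and 2.88 CPM (log2 change 2.38, SE 0.31, adjusted p = 0.0012 by the same edgeR test). GNAS rose from 1575 and 1248 to 3243 and 3276 CPM, ZDBF2 from 23.2 and 8.87 to 44.2 and 37.4 CPM and PLAGL1 from 9.19 and 5.18 to 14.5 and 15.3 CPM. The smallest rise was that of CDKN1C, from 4.11 and 2.92 to 5.92 and 5.03 CPM, and its call was lost when either HCC4006ER replicate was left out. SLC22A3 fell the most (log2 change -3.50, SE 0.25, adjusted p = 1.1e-04 by the same edgeR test), followed by PHLDA2 and SLC22A18, whose levels are given above. ZNF597 fell from 12.7 and 9.64 to 4.60 and 3.49 CPM, and NLRP2 from 138 and 115 to 54.4 and 58.1 CPM. At 15q11-q13, UBE3A fell from 226 and 170.3 to 77.5 and 70.8 CPM and SNRPN from 39.4 and 36.4 to 18.0 and 15.7 CPM. Each of these 13 members had both HCC4006ER libraries on one side of both HCC4006P1 libraries. The number of genes called was 6266, and 4051 without HCC4006ER replicate 1, where 12 of 20 members were called. Past the point on chromosome 7, the fit without HCC4006P1 replicate 1 gave a log2 change of 1.43 for MEST, from 66.1 CPM to 189 and 215 CPM. It gave -1.64 for PEG10, from 415 to 151 and 150.3 CPM, and -0.75 for PPP1R9A, from 17.9 to 12.4 and 11.8 CPM. The log2 changes of GRB10, SGCE and ZFAT were -0.20, -0.22 and 0.26, and the median of all genes in that fit was 0.04. These changes rest on 1 parental library, which is assumed to vary like the HCC4006ER libraries.

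**Figure D5:**
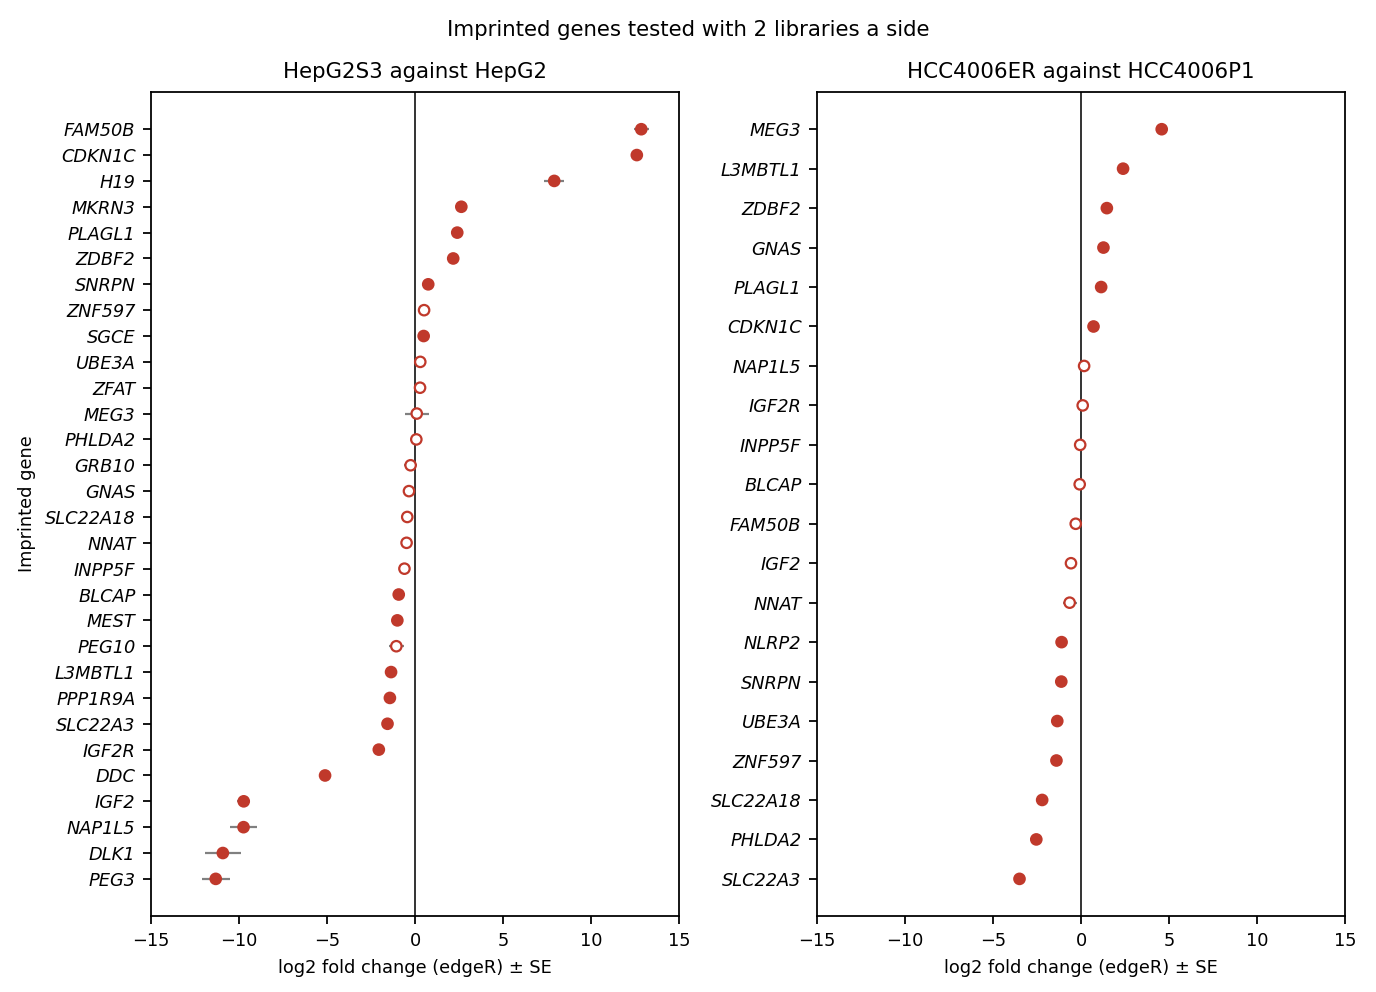
Log2 change of each member tested by edgeR in HepG2S3 against HepG2 and in HCC4006ER against HCC4006P1, with standard errors as bars and filled points for an adjusted p under 0.05. Filled points number 19 of 30 and 13 of 20.

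Taken over the 7 parental lines, with all resistant lines of a parent summed, no member of 33 tested passed edgeR's quasi-likelihood test in either direction. The backgrounds were 0.00% higher and 0.00% lower of 19829 genes tested. At an unadjusted p under 0.05 the edgeR test held 920 genes and 0 members, and DESeq2 called 113 genes and 0 members. The members' changes between lines were wide, as for IGF2 with a log2 change of 0.67 and SE 1.99, or DLK1 with -4.67 and SE 2.78. A test that misses the threshold does not show that the members stayed the same. The difference between the changes of HepG2S3 and HCC4006ER was tested by an interaction term added after the values were seen, and it passed for 19 of the 25 members tested, beside 55.9% of genes. L3MBTL1, SNRPN and GNAS are examples of members whose changes had opposite signs in both pairs, although GNAS did not pass the test in HepG2S3.

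The factors known to keep imprints were listed as 13 genes, of which 12 were matched to a counted gene. UHRF1 was not matched, so its level was not analysed here. Their summed level lay between 731 CPM in HepG2 and 1401 CPM in PancVB, with TRIM28 or DNMT1 the most abundant. One of the 12 changed 4-fold in any pair, SETDB1, a histone H3 lysine methyltransferase, at 15.2 CPM in PancVB, 1.12 CPM in PancB1Q and 1.57 CPM in PancB1V. SETDB1 was thus low in both 5-fluorouracil lines, each with 1 library, and a relation to the members was not tested. In HepG2S3, 8 of the factors were tested and 2 rose (DNMT1, the maintenance methyltransferase, by 0.95, and EHMT2, a histone methyltransferase, by 0.94 on the log2 scale) while 3 fell (CTCF -0.76, ZNF445 -0.51 and ARID4A -0.47), beside 31.4% and 32.1% of all genes. In HCC4006ER 1 of 8 rose, EHMT2 by 0.60, and 0 fell, beside 24.1% and 24.9%, and over the 7 parental lines 0 of 9 passed, with the counts by unadjusted p and by DESeq2 given above for all genes.

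Other genes of the same domains were listed as 34, of which 30 were matched to a counted gene, with INS at 0 CPM in every line. In HepG2S3 7 of 21 tested rose and 6 fell, beside 31.4% and 32.1% of all genes, in HCC4006ER 5 of 14 rose and 3 fell, beside 24.1% and 24.9%, and over the 7 parental lines 0 of 25 passed. CD81, KCNQ1 and OSBPL5, which lie in the 11p15.5 domain beside CDKN1C, switched on in both HepG2 pairs. CD81, a tetraspanin, was at 0.125 CPM in HepG2, 92.6 CPM in HepG2S1 and 101 CPM in HepG2S3, and it was at or above 67.5 CPM in every line other than HepG2. The potassium channel gene KCNQ1 was at 0.140, 24.5 and 38.3 CPM, and OSBPL5, a lipid transfer protein gene, at 0.0553, 168 and 233 CPM in the same order. CDKN1C and these 3 neighbours were thus low in HepG2 and high in both resistant lines, which does not extend to every gene of the domain. Its genes TSSC4, at 24.7, 22.7 and 29.8 CPM, and NAP1L4, at 124, 108 and 143 CPM, did not pass the edgeR test in HepG2S3, nor did the members PHLDA2 and SLC22A18, with log2 changes of 0.06 and -0.45, although SLC22A18 did without HepG2 replicate 2. ASB4, of the 7q21 domain, switched off, at 9.78, 0.305 and 0.158 CPM. In the HCC4006ER pair MEG8, the noncoding neighbour of MEG3, was at 0.472 CPM in HCC4006P1 and 7.64 CPM in HCC4006ER, so it moved with MEG3, and it passed the edgeR test as did MEG9. ATP10A, a lipid flippase gene at 15q12, was at 62.2 CPM in HCC4006P1 and 0.0253 CPM in HCC4006ER, a switch to off, and at 0.344 CPM in UWB1.289 and 6.24 CPM in U10, a switch to on. Outside these, ATP10A in PancB1Q, HERC3 in HepG2S3, KCNK9 in U100 and SLC22A2 in IGROV-1/CDDP met the 4-fold rule.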

How the data were processed

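RNA was sequenced from 17 cancer cell lines (21 libraries) with a stranded kit. The authors aligned the reads to hg19 with Bowtie and TopHat, counted them per Ensembl gene with HTSeq and deposited the counts, and the strand setting of the counting and the versions are not given in the sources used here. Lines that name no gene were left out of the totals, with 5.24% to 14.0% of a library's counts in no feature. Gene IDs were matched to symbols for 84.3% of genes. CPM used the totals on genes, with a pseudocount of 1 CPM for log2 changes. Pairs with replicates were tested with edgeR 4.0.16 (TMM, filterByExpr, adjusted p under 0.05), with DESeq2 1.42.0 as an alternative, in R 4.3.3, and the tests were tested on simulated data. Named are members that switched, changed 4-fold or passed an edgeR test, and members on in every line by their range. Members and lists were chosen with earlier results of these data known. The alternatives tried were other thresholds, pseudocounts and scalings, no filter, a replicate block and leaving out each library.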

Additional observations from a re-analysis of the deposited data

Results flagged for a closer look

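A test of the difference between the change in HepG2S3 and the change in HCC4006ER, an interaction term added after the data were seen, passed for 19 of 25 members, beside 55.9% of the 14478 genes tested. Each value is the log2 change in HepG2S3 minus that in HCC4006ER, each against its parental line, from edgeR's quasi-likelihood test with Benjamini-Hochberg adjustment. At 11p15.5 the differences were 12.33 for H19, -9.13 for IGF2, 11.87 for CDKN1C, 2.64 for PHLDA2 and 1.79 for SLC22A18. At 14q32 they were -4.46 for MEG3, -14.92 for DLK1 and -6.14 for RTL1. At 15q11-q13 they were 1.89 for SNRPN, 3.596 for MKRN3 and 1.67 for UBE3A. On chromosome 6 they were 1.28 for PLAGL1, -2.13 for IGF2R, 1.95 for SLC22A3 and 12.88 for FAM50B, and on chromosome 20 -1.59 for GNAS and -3.72 for L3MBTL1. NAP1L5 had -9.61 and ZNF597 had 1.93. The values of H19, CDKN1C, DLK1, RTL1, MKRN3, FAM50B and NAP1L5 rest on lines with 0 or a few counts, depend on the prior count of the fit and are no bounds. HepG2S3 and HCC4006ER differ in cell line, drug and markers, which cannot be told apart.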

How the results depend on the processing

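The totals of 15 switches and 38 changes of 4-fold moved by 1.5 times or less under other thresholds, pseudocounts, filters or scalings, to 14 to 21 switches and 38 to 47 changes. Parts of them moved by more. With on at 2 CPM or more there were 11 switches to off, against 7, and without the HepG2 pairs 6 to on and 2 to off, against 4 and 0. Counts of a single pair, of 0 to 6 members, moved by up to 2. With a pseudocount of 0.1 CPM there were 2 members higher, against 1, in HCC4006ER, HCC827GR and U100, 4 against 3 in PancB1V, and 1 member lower, against 0, in PancB1V (SLC22A3) and HCC4006GR (DLK1), 5 against 4 in HepG2S1 and HepG2S3 and 2 against 1 in IGROV-1/CDDP (NAP1L5 in all 3). With TMM-scaled totals HepG2S1 turned from 6 higher and 4 lower to 4 higher and 6 lower. With libraries left out in turn there were 15 to 17 switches and 37 to 40 changes of 4-fold (24 to 25 higher, 13 to 16 lower). Without the HepG2 pairs, an alternative chosen after seeing the data, 4 switches and 18 changes remained, 12 higher and 6 lower, by the smaller number of pairs. With the genes empty in HCC4006P1 replicate 1 the HCC4006ER fit called 3417 of 15978 genes and 9 of 26 members, and 4 of the 20 members with counts lost their call. The cause was not tested. Without HCC4006P1 replicate 1 the HCC4006ER fit took in the genes past the point, 16597 genes and 27 members, and called 10281 genes and 20 members, so its counts are not of the same form as the main ones. Leaving out 1 of the other libraries gave 4051 to 8268 genes and 12 to 14 members in HCC4006ER, and leaving out 1 library gave 7341 to 13242 genes and 15 to 26 members in HepG2S3. DESeq2 called 113 genes and 0 members over the 7 lines, and the cause was not tested. GRB10, not called in HepG2S3 against HepG2 at -0.26, was called at -0.71 without HepG2 replicate 1 and at 0.36 without HepG2 replicate 2, since its level differed between the HepG2 libraries. Without TMM, 6761 genes rose and 4305 fell in HepG2S3, against 5308 and 5436 with it. Of 420 alternative values of members in both edgeR fits, 18 lost and 18 gained a call in the same direction. Of 190 alternative log2 changes by CPM, 62 moved by more than the lower arm of the counting interval of the fold, or at all where the fold is a bound, 26 of them with a pseudocount of 0.1 CPM, and none changed sign.

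With the replicate number as a block, HepG2S3 had 10561 genes and 18 members called and HCC4006ER 7787 genes and 13 members. Only the number is shared: deviations of same-numbered libraries correlated at 0.0153 in the HepG2 lines and 0.386 in the HCC4006 lines over 2 pairs each. The replicate numbers of HepG2 and HepG2S3 were read from letters in the labels.

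Lines with 1 library have no replicate check. The chi-square between replicates, divided by its degrees of freedom, lay between 5.85 and 98.6, above counting error. A level of 0 in a library allowed up to 0.0819 to 0.305 CPM at 3 counts.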
